A study of Mus musculus with 8 samples.

Results

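The 10 genes described here mark blood vessel endothelium and were read on 8 arrays, 4 of Co mice and 4 of Pg mice. They are *Kdr*, *Flt1*, *Tek*, *Tie1*, *Cdh5*, *Sox17*, *Sox18*, *Nos3*, *Thbd* and *Vwf*. They were taken as every spot that is not a control and whose gene name on the array equals one of these symbols, which gave 10 of 37008 gene names and 19 probes. The mice were C57BL/6J males, 12 weeks old. Pg mice had an intravenous injection of sonicated *P. gingivalis* in 100 μL of saline, at a dose that the labels print as 108 CFU with the exponent run into the number, and Co mice had saline. The tissue was collected 18 h later, labelled as brown adipose tissue, and its RNA was hybridized to Agilent one-color arrays, 4 for each group. No mouse carried a transgene or deletion by the labels.

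Endothelial cells line every vessel and are told from other cells by a small set of receptors, junction proteins and transcription factors. *Kdr* and *Flt1* encode receptors of vascular endothelial growth factor (VEGF), *Tek* and *Tie1* encode the angiopoietin receptor and its partner, and *Cdh5* encodes VE-cadherin of the endothelial junction. *Nos3* and *Thbd* encode an enzyme and a surface receptor that keep the vessel wall relaxed and free of clots, and both are known as genes that laminar flow induces. Endotoxin in the blood reaches these cells first, and markers of this kind are known to fall in severely inflamed endothelium.

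The signals given are log2 values after quantile normalization between the 8 arrays. Of the 19 probes, 17 passed the filter, a signal well above background on 4 arrays or more, and were tested with limma. They covered all 10 genes. Another 2 probes, both of *Kdr*, were not tested, and 15 of the 17 were above background on all 8 arrays. No spot was saturated. In what follows a gene rose or fell when limma's Benjamini-Hochberg q over all 33819 tested probes was under 0.1, and a DEG also had a fold change above 1.5. On each Co array 34760 to 35831 probes were well above background, and on each Pg array 31132 to 34063. All arrays were on the same slide, with row 1 holding Co and row 2 holding Pg, so that the slide row and the group cannot be told apart. A change in the share of endothelial cells and a change in RNA per cell cannot be told apart either, since each array holds RNA of the whole tissue piece.

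The array design places its probes on the mm9 build. Each probe is a 60-base oligo, and 30 bases of it are given, 5′ to 3′, from the deposited array files. They are shown for *Kdr*, *Flt1* and *Vwf*, whose probes lie far apart in the gene and are described one by one, and for *Thbd* and *Nos3*, whose groups did not overlap. Of the pair of *Flt1* probes for ENSMUST00000110529, only A_55_P2800423 is shown. Capitals mark AATAAA, the core polyadenylation signal, searched on the strand of the probe. It stands in 1 of the 19 probes, where it occurs 2 times, and in 9.77% of all 56605 probes.
Kdr NM_010612 (chr5:76329309-76329368, minus strand): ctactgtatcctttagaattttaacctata
Kdr EU884114 (chr5:76353385-76353444, minus strand): gagggaAATAAAtcctctaacctgAATAAA
Kdr ENSMUST00000149573 (chr5:76357639-76357698, minus strand): gtacaataacatgcaaaggtatatcaaagg
Flt1 NM_010228 (chr5:148373791-148373850, minus strand): aagtaaagaaaagctatcgggattctctgg
Flt1 ENSMUST00000110529 (chr5:148448888-148448947, minus strand): tcctcagaacaaaacctgaactgaactgag
Flt1 AK005502 (chr5:148465976-148466035, minus strand): tccctatcccaactacacattcaatcttct
Vwf NM_011708 (chr6:125636551-125636610, plus strand): caagtgaggcctgtgcagctacagcggatt
Vwf ENSMUST00000139678 (chr6:125586583-125586642, plus strand): gcacctgtgctgtttcccttaaacatgatt
Vwf ENSMUST00000112253 (chr6:125542106-125542165, plus strand): tagttaaacagaacaacagtgaagggcgga
Thbd NM_009378 (chr2:148230235-148230294, minus strand): tatttatttattggagtttcgctagaacac
Nos3 NM_008713 (chr5:23890038-23890097, plus strand): tgtagactccctttaactctctctctggag

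*Kdr* and *Thbd* rose in Pg mice, and no other probe of the 10 genes passed the test in either direction. So 2 of 17 tested probes had a q under 0.1, both higher in Pg mice, against 7.82% of all tested probes, 1.82% higher and 6% lower. None was a DEG, against 1.61% of all. An unadjusted p under 0.05 in limma was found for 5 of the 17 and for 22.8% of all. Among the 5 is the dim *Flt1* probe AK005502, which passed the filter through its 4 Co arrays and was well above background on 1 Pg array. For 4 of the 17 probes the groups were fully apart, Pg above Co each time. This held for 15.8% of all tested probes, 4.83% with Pg above Co and 11% with Pg below Co. The median log2 fold change of the 17 probes was 0.00, with 9 higher and 8 lower, and that of all tested probes was -0.04 (42.3% higher). Taking the brightest tested probe of each gene, 7 genes were higher and 3 lower, with a median of 0.13 beside -0.01 for all 22303 tested genes.

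**Figure D1:**
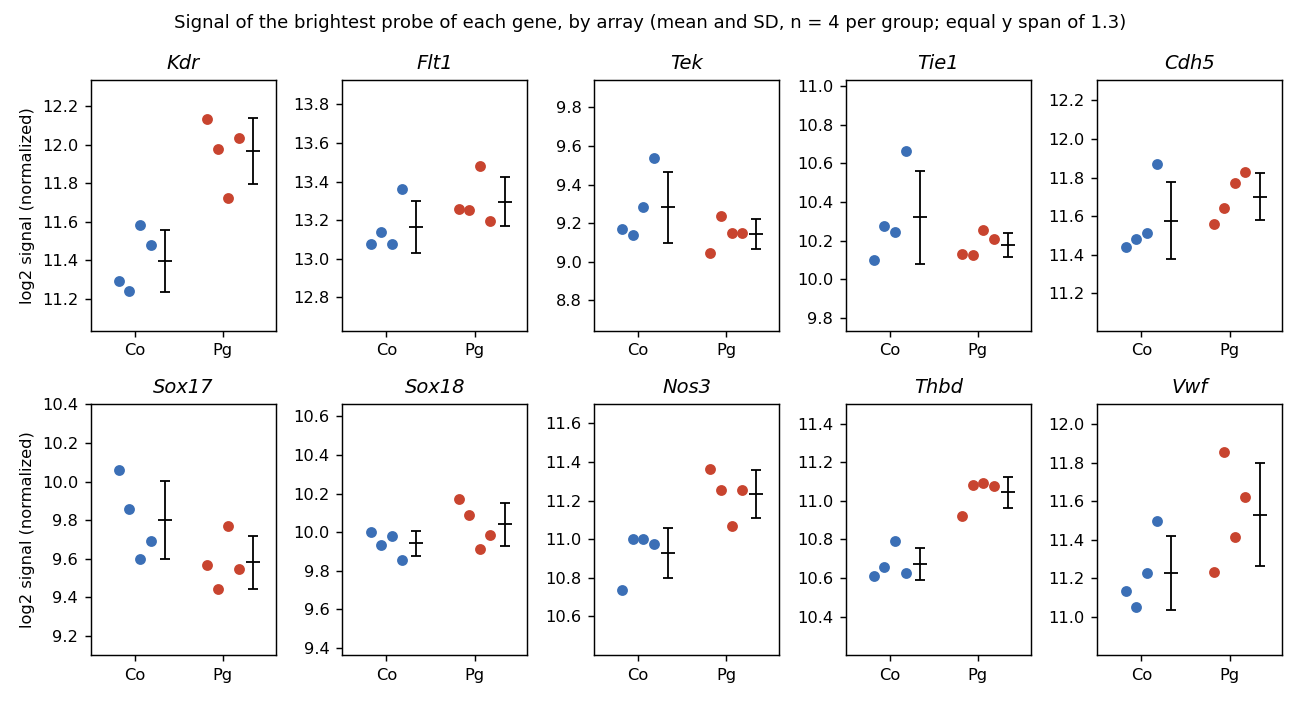
Normalized log2 signal of the brightest tested probe of each of the 10 genes on 4 Co and 4 Pg arrays (points), with the mean and SD of each group, each panel spanning 1.3 on the log2 scale. The Pg points lie wholly above the Co points for *Kdr*, *Thbd* and *Nos3*, and the groups overlap for the other genes.

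*Kdr* encodes VEGF receptor 2, the main signaling receptor for VEGF on endothelium. Its probe for the full transcript (NM_010612) had log2 signals of 11.29, 11.24, 11.58 and 11.48 on the Co arrays and 12.13, 11.98, 11.73 and 12.03 on the Pg arrays. All Pg arrays lay above all Co arrays, and Pg replicate 3 lay nearest to the Co group. The mean rose from 11.40 ± 0.16 to 11.97 ± 0.17 (SD, n = 4 each), which gives a log2 fold change of 0.57 (standard error 0.11, 95% interval 0.31 to 0.83, adjusted p = 0.0573 from limma). This is 1.48-fold, just under the 1.5-fold limit of a DEG. The probe for a soluble form of the receptor, a secreted part that binds VEGF, lies 24.1 kb from the first probe and stood well above background on 0 arrays, with log2 signals of 2.06 to 2.77 in Co and 2.09 to 2.13 in Pg mice. The third *Kdr* probe was well above background on Co replicate 4 alone. The rise of *Kdr* therefore rests on 1 probe.

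When each array was dropped in turn, *Kdr* lost its call in 7 of 8 fits, with adjusted p values of at most 0.128 from limma. It held without Pg replicate 3, where the change was 0.65 (adjusted p = 0.0518) and *Kdr* was a DEG. Over all 16 alternatives its log2 fold change lay between 0.51 and 0.65 and its adjusted p between 0.0379 and 0.169.

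*Flt1* encodes VEGF receptor 1, which binds VEGF tightly and also yields soluble forms. The probe of its full transcript (NM_010228) had log2 signals of 13.07, 13.14, 13.08 and 13.36 on the Co arrays and 13.26, 13.25, 13.48 and 13.19 on the Pg arrays. The groups overlapped, and the log2 fold change of 0.13 had a 95% interval of -0.08 to 0.35 (adjusted p = 0.431 from limma). This interval overlaps that of *Kdr* (0.31 to 0.83), and whether the 2 genes differed in their change was not tested. The change of *Flt1* on this probe is the value meant next. Without Pg replicate 3 it was 0.070. A pair of probes for a transcript entry that lies 75.1 and 76.9 kb upstream on the minus strand (ENSMUST00000110529) differed between the groups by 0.00 (95% interval -0.22 to 0.23) and -0.16 (95% interval -0.40 to 0.08), the latter -0.082 without Pg replicate 2. A cDNA probe farther upstream (AK005502) was dim. It had log2 signals of 5.26, 5.16, 5.02 and 4.62 on the Co arrays and 4.53, 3.56, 4.13 and 4.67 on the Pg arrays. Only Pg replicate 4 was well above background among the Pg arrays, against 4 Co arrays. The probe thus passed the filter through the Co arrays, and its fitted difference of -0.79 (adjusted p = 0.126 from limma) is no measure of size. That value also depended on the background treatment, at -0.19 with normexp correction, -0.21 on the median signal and -0.31 on the authors' log2 values. Whether the probes of *Flt1* differed from one another in their change was not tested.

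**Figure D2:**
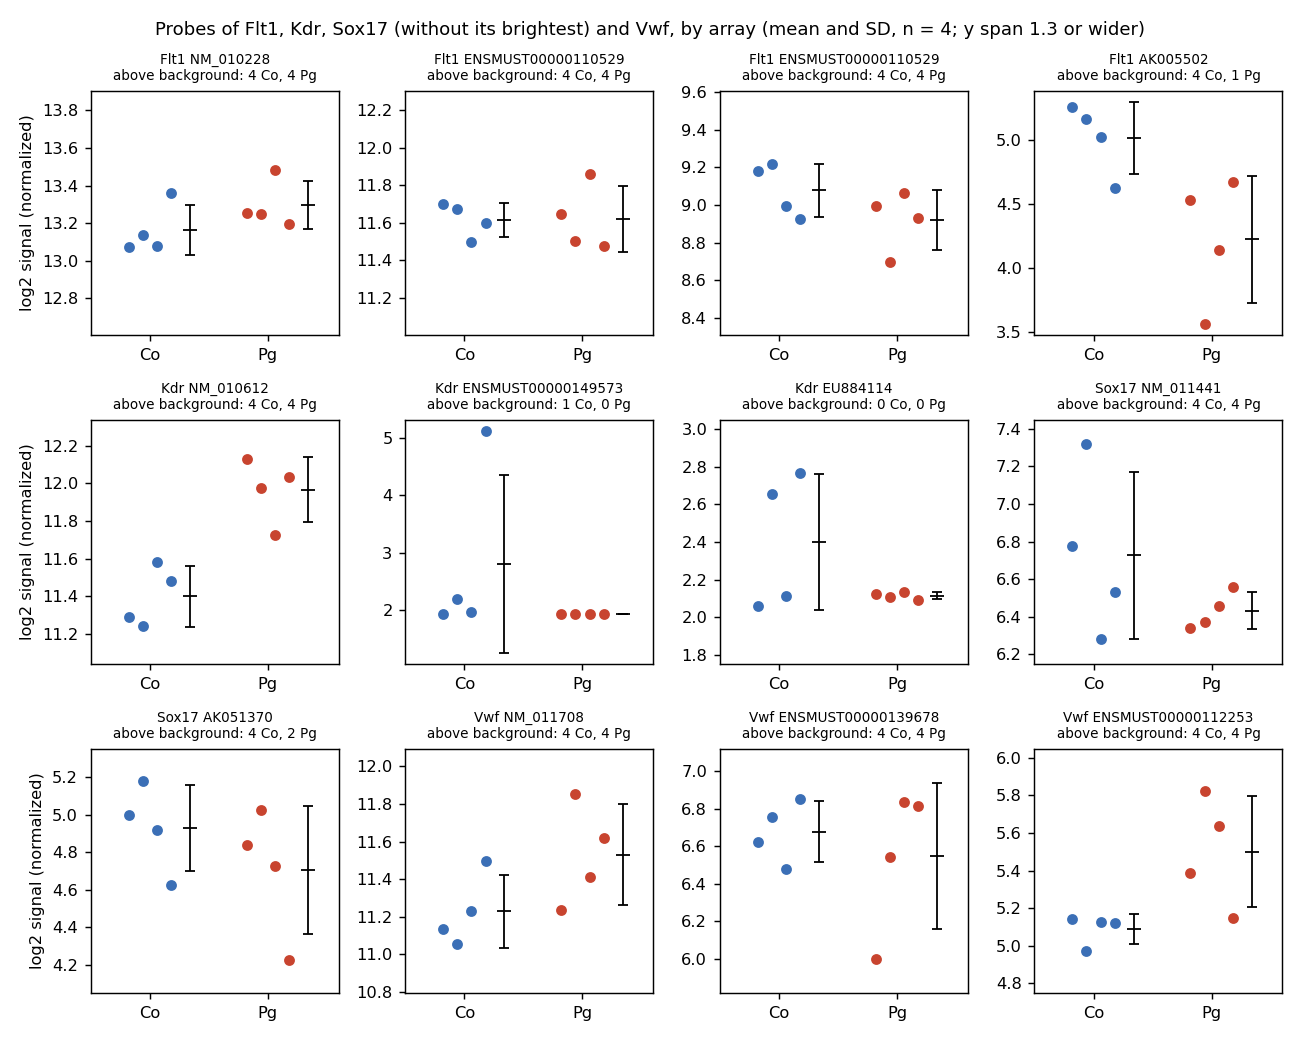
Normalized log2 signal of the probes of *Flt1*, *Kdr*, *Sox17* and *Vwf* by array (points) with mean and SD (n = 4 per group), and above each panel the number of arrays of each group on which the probe was well above background. The brightest *Sox17* probe is in the plot of brightest probes. The *Kdr* rise is seen on the NM_010612 probe, while the soluble *Kdr* probe (EU884114) was above background on 0 Co and 0 Pg arrays.

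*Tek* (Tie2) is the receptor of the angiopoietins, which keep vessels quiescent, and *Tie1* is its partner without a ligand of its own. *Tek* had log2 signals of 9.17, 9.14, 9.28 and 9.54 on the Co arrays and 9.05, 9.24, 9.15 and 9.15 on the Pg arrays. *Tie1* had 10.10, 10.27, 10.24 and 10.67 on the Co arrays and 10.13, 10.12, 10.25 and 10.21 on the Pg arrays. For both genes the groups overlapped, and Co replicate 4 was the highest array. The log2 fold change was -0.14 for *Tek* (95% interval -0.36 to 0.09, adjusted p = 0.441 from limma) and -0.14 for *Tie1* (95% interval -0.42 to 0.13, adjusted p = 0.51). Neither interval reaches that of *Kdr* (0.31 to 0.83), but a difference between the genes was not tested. Without Co replicate 4 the differences were -0.052 for *Tek* and -0.027 for *Tie1*.

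*Cdh5* is the adhesion protein of endothelial junctions and served as the reference of the comparison within arrays given further on. Its log2 signals were 11.44, 11.48, 11.51 and 11.87 on the Co arrays and 11.56, 11.64, 11.77 and 11.83 on the Pg arrays. The highest value was again that of Co replicate 4, and the groups overlapped. The log2 fold change was 0.13 (95% interval -0.13 to 0.38, adjusted p = 0.539 from limma), and 0.23 without Co replicate 4.

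*Sox17* and *Sox18* encode SOXF transcription factors, which act in vessel formation, *Sox17* mainly in arteries. The brightest *Sox17* probe had log2 signals of 10.06, 9.86, 9.60 and 9.69 on the Co arrays and 9.57, 9.44, 9.77 and 9.55 on the Pg arrays. Co replicates 1 and 2 were above every Pg array and the other Co arrays lay among them, with a log2 fold change of -0.22 (95% interval -0.49 to 0.05, adjusted p = 0.304 from limma). A second probe of the same transcript, 0.81 kb away, gave -0.29 (95% interval -0.76 to 0.18). The first of these fell in size to -0.13 without Co replicate 1, and the second to -0.096 without Co replicate 2. The third *Sox17* probe (AK051370) runs on the opposite strand of the other 2 by the array's coordinates, and was well above background on 4 Co and 2 Pg arrays, with a difference of -0.23 (95% interval -0.65 to 0.20), or -0.067 without Pg replicate 4. This difference was -0.060 with normexp correction, -0.059 on the median signal, -0.084 with 75th percentile scaling, -0.039 on the authors' log2 values and -0.034 without normalization. *Sox18* had log2 signals of 10.0003, 9.93, 9.98 and 9.86 on the Co arrays and 10.17, 10.09, 9.91 and 9.99 on the Pg arrays. Its groups overlapped and its log2 fold change was 0.10 (95% interval -0.07 to 0.26, adjusted p = 0.458 from limma), or 0.054 without Pg replicate 1.

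*Nos3* encodes endothelial nitric oxide synthase, which makes the gas that relaxes vessels. It had log2 signals of 10.73, 10.9995, 11.0028 and 10.97 on the Co arrays and 11.37, 11.26, 11.07 and 11.25 on the Pg arrays. All Pg arrays lay above all Co arrays, but Pg replicate 3 was above the highest Co array by little. The mean was 10.93 ± 0.13 (SD, n = 4) in Co mice and 11.24 ± 0.12 in Pg mice. The log2 fold change of 0.31 (standard error 0.09, 95% interval 0.10 to 0.52) had an adjusted p of 0.108 from limma, just past the threshold. It was under the threshold in 4 of 16 alternatives, and the range over them was 0.0843 to 0.235.

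*Thbd* encodes thrombomodulin, the endothelial receptor that turns thrombin into an activator of protein C and so limits clotting. It had log2 signals of 10.61, 10.65, 10.79 and 10.63 on the Co arrays and 10.92, 11.08, 11.09 and 11.08 on the Pg arrays. The groups did not overlap, and the spread within each was small. The mean was 10.67 ± 0.08 (SD, n = 4) in Co mice and 11.04 ± 0.08 in Pg mice. The log2 fold change of 0.37 (standard error 0.07, 95% interval 0.22 to 0.53) is 1.29-fold and had an adjusted p of 0.0517 from limma. Dropping Co replicate 2, Co replicate 3 or Pg replicate 2 ended the call (adjusted p = 0.119, 0.106 and 0.102), and dropping any of the other 5 arrays did not. Over all 16 alternatives the adjusted p was 0.034 to 0.155.

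*Vwf* encodes von Willebrand factor, which endothelium and platelets store and release to bind platelets at a wound. Its brightest probe had log2 signals of 11.14, 11.05, 11.23 and 11.50 on the Co arrays and 11.23, 11.85, 11.41 and 11.62 on the Pg arrays. Pg replicate 2 was highest and the groups overlapped, with a log2 fold change of 0.30 (95% interval -0.05 to 0.65, adjusted p = 0.28 from limma), or 0.19 without Pg replicate 2. The 2 other probes, of transcript entries 50 and 94.4 kb upstream, were dim and went apart, by -0.13 (adjusted p = 0.722) and 0.41 (adjusted p = 0.144). The groups of the second of these did not overlap, at 4.97 to 5.14 in Co and 5.15 to 5.83 in Pg mice, and they were apart by little. This difference was 0.16 with normexp correction, 0.23 on the median signal, 0.25 on the authors' log2 values and 0.60 without normalization. The probe was called with 75th percentile scaling and without Pg replicate 4 (adjusted p = 0.0978 and 0.0963 from limma, in a range of 0.0963 to 0.269 over 16 alternatives). Of 10 platelet genes, 8 were tested, 4 higher and 4 lower in Pg mice with none under a q of 0.1, where 47.2% of all tested genes were higher, 2.05% rose and 4.18% fell. *Gp1ba* and *Gp5* were too dim to test. *Itga2b*, the platelet integrin αIIb, passed the filter through the Co arrays alone, with log2 signals of 4.28 to 6.47 in Co mice and 3.79 to 4.18 in Pg mice, none of the latter well above background, so that no size of the difference is given. *Gp9* differed by -0.46 (adjusted p = 0.621), and by -0.82 to -0.12 with an array left out. The log2 of their summed signal was 10.83 to 11.50 in Co and 10.49 to 11.56 in Pg mice, and most of it came from *Pf4*.

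**Figure D3:**
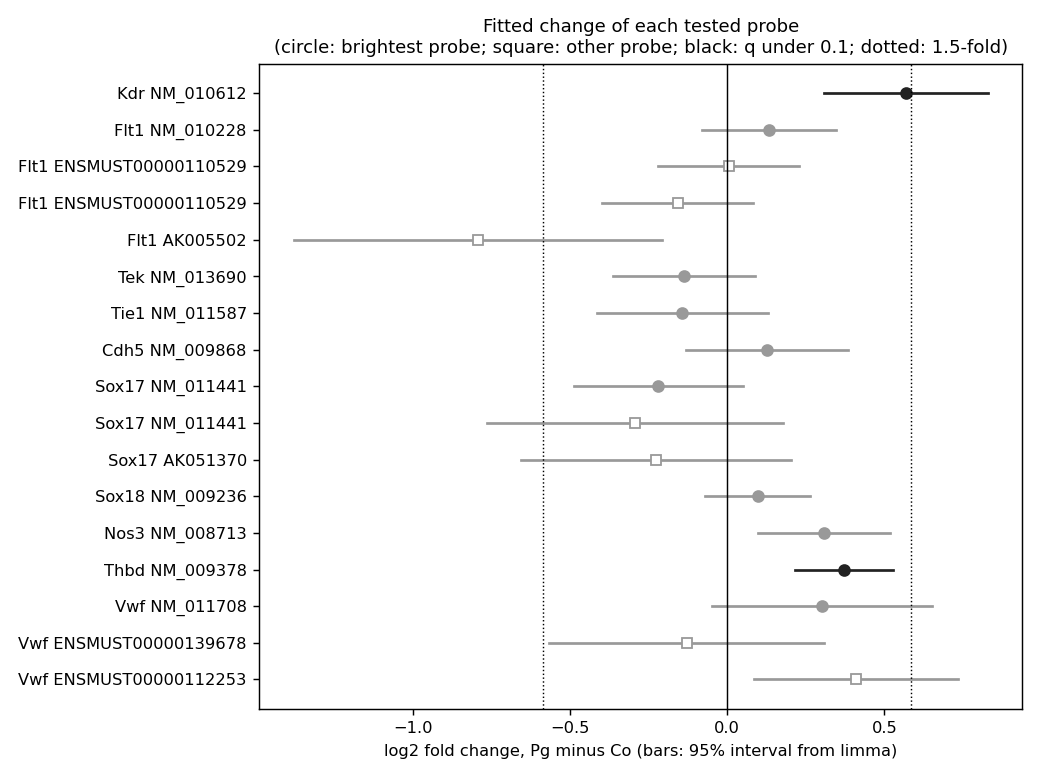
Fitted log2 fold change, Pg minus Co, of the 17 tested probes with 95% intervals from limma (circles, brightest probe of a gene; squares, other probes; black, q under 0.1; dotted lines, 1.5-fold either way). The intervals of *Kdr* NM_010612, *Thbd* and *Nos3* lie above 0, as does that of the dim *Vwf* ENSMUST00000112253, and that of *Flt1* AK005502, which passed the filter through its 4 Co arrays and was well above background on 1 Pg array, lies below 0.

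The genes were also set against one another within each array. There the log2 signal of *Cdh5* was subtracted from that of the other 9 genes, a ratio in which any scaling of a whole array cancels. This comparison was chosen after the values were seen, and 2 of the 9 ratios were lower on every Pg array than on every Co array. Over all 22302 other tested genes the ratio to *Cdh5* did not overlap for 6.69% and was lower in Pg mice for 6.23%. The log2 ratio of *Tek* to *Cdh5* spanned -2.34 to -2.23 in Co and -2.68 to -2.41 in Pg mice, a mean difference of -0.26. That of *Tie1* spanned -1.34 to -1.21 in Co and -1.62 to -1.43 in Pg mice, a mean difference of -0.27. Without normalization between arrays these differences were -0.25 and -0.27, again without overlap, where 5.39% of the other genes did not overlap and 4.54% were lower in Pg mice. The ratio of *Kdr* was higher by 0.44 in Pg mice but overlapped, as Co replicate 3 (0.07) was above Pg replicate 3 (-0.05). That of *Sox17* had the largest negative difference of the 9, -0.34, and overlapped, at -2.18 to -1.38 in Co and -2.28 to -1.99 in Pg mice. The ratios of *Thbd*, *Nos3* and *Vwf* differed by 0.25, 0.18 and 0.18 and those of *Flt1* and *Sox18* by 0.01 and -0.03, all with overlap.

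Most other pan-endothelial genes were higher in Pg mice. A list of 25 pan-endothelial genes had 24 tested, and all 24 were above background on all 8 arrays. The log2 fold change was above 0 for 21 and below 0 for 3 of them, its median being 0.19, and 47.2% of all tested genes were above 0. In this list 6 genes rose and 0 fell, where 2.05% of all tested genes rose and 4.18% fell, and 2 were DEGs, where 1.18% were. An unadjusted p under 0.05 was found for 12 of the 24 and for 20.3% of all. The log2 of their summed signal was 16.04 to 16.24 in Co and 16.34 to 16.50 in Pg mice, without overlap. *Cd93*, a glycoprotein of the endothelial surface, rose by 0.63 (standard error 0.11, adjusted p = 0.0494 from limma), from 12.13, 12.36, 12.23 and 12.51 on the Co arrays to 12.96, 13.03, 12.72 and 13.06 on the Pg arrays. *Icam2*, an adhesion protein that endothelium carries at rest, rose by 0.61 (standard error 0.11, adjusted p = 0.0494), and both were DEGs. The others that rose were *Mmrn2* by 0.46, *Egfl7* by 0.42, *Ptprb* by 0.32 and *Fli1* by 0.28. With an array left out, *Egfl7* was called in 7 of 8 fits, *Cd93* and *Icam2* in 6, *Mmrn2* and *Ptprb* in 2 and *Fli1* in 0. *Pecam1*, a classical endothelial marker, was 9.38 ± 0.10 (SD, n = 4) in Co and 9.18 ± 0.08 in Pg mice, a difference of -0.20 (adjusted p = 0.151), with every Pg array below every Co array. The list held 6 called genes with all arrays, 0 without Co replicate 3 and 1 without Co replicate 2, while 20 or 21 genes were higher with any array left out.

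Among 18 genes that flow is known to regulate, all tested, 12 were higher and 6 lower (median 0.09 on the log2 scale), where 47.2% of all tested genes were higher. Of the 18, 4 rose and 0 fell, against 2.05% and 4.18% of all tested genes. *Klf2* and *Klf4* encode the transcription factors that laminar flow induces in endothelium and that raise transcription of *Nos3* and *Thbd* there. *Klf2* was 10.92 ± 0.31 (SD, n = 4) in Co and 11.79 ± 0.18 in Pg mice (adjusted p = 0.0528 from limma), and *Klf4* was 12.46 ± 0.10 and 13.19 ± 0.18 (adjusted p = 0.0398). For both, every Pg array lay above every Co array. *Piezo1*, a mechanically gated ion channel, rose by 0.29 and *Kcnj2*, an inward rectifier potassium channel, by 0.35, but the other tested probe of *Kcnj2* went the opposite way. Both lost their call with any array left out, and *Kcnj2* differed by 0.063 (adjusted p = 0.755 from limma) on the authors' log2 values. *Edn1*, encoding the constrictor endothelin 1, differed by -0.16 (adjusted p = 0.356), and by -0.088 without Pg replicate 2. With an array left out, 0 to 3 of the 18 genes had a q under 0.1, and 0 did without Co replicate 3. *Klf4* was called in 7 of these 8 fits and *Klf2* in 5.

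None of 14 ligands and co-receptors of the VEGF, angiopoietin and apelin systems had a q under 0.1, although 5 had an unadjusted p under 0.05 in limma, against 20.3% of all tested genes. Of them 6 were higher and 8 lower (median -0.03 on the log2 scale), where 47.2% of all were higher. The largest differences were -0.47 for *Angptl4* (adjusted p = 0.163), an inhibitor of lipoprotein lipase, and 0.42 for *Vegfc* (adjusted p = 0.122), the growth factor of lymphatic vessels, which passed the test without Pg replicate 3. *Vegfa*, the main ligand of *Kdr*, differed by -0.13 (adjusted p = 0.545) and *Angpt2*, the antagonist ligand of *Tek*, by 0.21 (adjusted p = 0.209).

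Of 12 tested haemostasis genes of endothelium, 8 were higher and 4 lower and none had a q under 0.1. An unadjusted p under 0.05 was found for 3 of the 12, a share near the 20.3% of all tested genes, of which 47.2% were higher. *Tfpi*, the inhibitor of the tissue factor pathway, differed by -0.66 (adjusted p = 0.116) and *Pros1*, the cofactor of protein C, by 0.36 (adjusted p = 0.128). Both passed the test on the median signal, where *Tfpi* differed by -0.40. *Procr*, the protein C receptor that works with thrombomodulin, differed by 0.12 (adjusted p = 0.538).

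By vessel type, *Efnb2*, an arterial ligand, rose by 0.33 (adjusted p = 0.0702 from limma) as 1 of 10 tested arterial genes, 8 of which were higher, where 2.05% of all tested genes rose and 47.2% were higher. It was called in 2 of 8 fits with an array left out. No gene had a q under 0.1 among 5 venous, 11 capillary and 6 lymphatic genes, and 2, 2 and 0 of these had an unadjusted p under 0.05, against 20.3% of all tested genes. The capillary list includes *Lpl*, *Kcnj8* and *Abcc9*, which are not specific to endothelium. The largest differences were 0.32 for *Nr2f2* and 0.31 for *Vcam1* among the venous genes, -0.35 for *Cd300lg* (whose other tested probe went the opposite way) and 0.27 for *Meox2* among the capillary genes, and -0.29 for *Lyve1* and 0.26 for *Ccl21a* among the lymphatic genes. *Fbln5* differed by 0.32 in the arterial list. *Nr2f2* rested on Pg replicate 1 and differed by -0.039 without it, and *Ccl21a* differed by -0.051 without Co replicate 2.

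Of 10 tested genes of endothelial activation, 9 were higher (median 0.38 on the log2 scale), where 47.2% of all tested genes were. In this list 2 rose, against 2.05% of all tested genes. These were *Icam1*, an adhesion protein for leukocytes, by 0.74 (adjusted p = 0.0755 from limma) and *Tnfaip3*, an inhibitor of NF-κB, by 0.70 (adjusted p = 0.0509), both DEGs, where 1.18% of all tested genes were. The groups overlapped for *Icam1*, which was called in 1 of 8 fits with an array left out, that without Pg replicate 3, and *Tnfaip3* was called in 6. *Cxcl1*, a neutrophil chemokine, was higher by 1.57 without passing the test (adjusted p = 0.122). It passed without Pg replicate 3, and its difference was 0.79 with normexp correction. *Sele*, the selectin that activated endothelium makes, was too dim to be tested, as were *Csf3* and *Il6*.

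**Figure D4:**
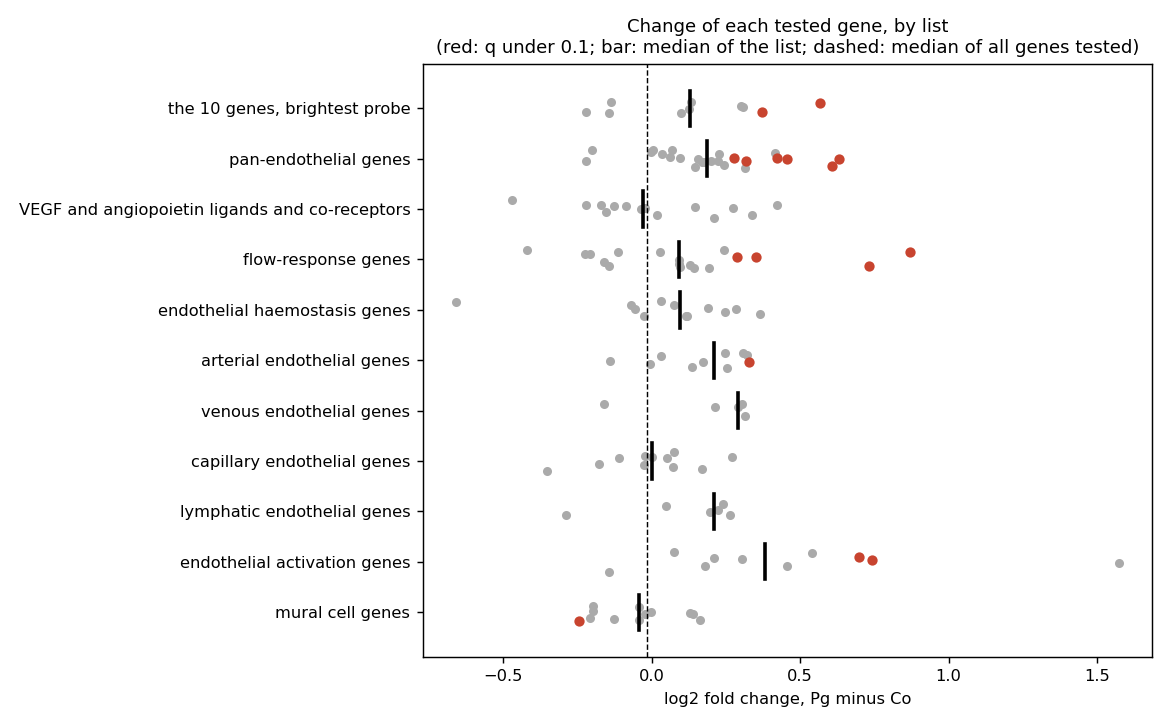
Log2 fold change, Pg minus Co, of every tested gene (1 point per gene, its brightest probe) in the 10 genes and in each list of endothelial and mural genes, with the median of the list as a bar and that of all tested genes as a dashed line. Red points had a q under 0.1, and they lie above 0 in each list shown other than the mural list.

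Over the 9 endothelial lists, which hold 107 different tested genes besides the 10, 76 were above and 31 below 0 in log2 fold change, where 47.2% of all tested genes were above 0. Of the 107, 13 rose and 0 fell, against 2.05% and 4.18% of all. None of the 13 kept its call without Co replicate 3, without normalization between arrays or with the replicate block. Of 12 mural cell genes 9 were lower, and *Mcam*, a melanoma cell adhesion protein that endothelium also carries, fell by 0.25 (adjusted p = 0.0599 from limma) and was called in 1 of 8 fits with an array left out. *Rgs5*, a pericyte marker, differed by -0.21 (adjusted p = 0.299). The log2 of their summed signal was 18.02 to 18.11 in Co and 17.92 to 18.08 in Pg mice. Of 11 tested macrophage genes 9 were higher and none had a q under 0.1, with *Cx3cr1* at a difference of 0.95 (0.47 with normexp correction and 0.50 on the median signal) and *Lyz2* at 0.60 (0.34 to 0.97 with an array left out), and sums of 13.25 to 14.01 and 13.21 to 14.88. Of 8 tested neutrophil genes 7 were higher and none had a q under 0.1. *S100a8* differed by 2.16 and *S100a9* by 2.04 (1.36 and 1.62 with normexp correction). The groups overlapped for both, with *S100a8* at 8.59, 8.32, 5.18 and 6.76 and *S100a9* at 10.56, 10.17, 6.99 and 7.38 on the Pg arrays. The highest Co values were 5.33 and 7.27. The summed signal of the neutrophil genes came almost wholly from *Csf3r* (15.26 to 15.59 in Co and 15.51 to 15.73 in Pg mice). *S100a8* passed the test without Pg replicate 3. The 6 tested red blood cell genes were all lower, with *Alas2* and *Hbb-bt* at -0.63 each, none under a q of 0.1, and sums of 18.81 to 19.51 in Co and 17.72 to 19.56 in Pg mice. Without Pg replicate 3 these differences were -0.18 for *Alas2* and -0.20 for *Hbb-bt*, and without Pg replicate 4 they were -1.02 and -1.01. The part of these cells in the changes of the endothelial genes was not tested.

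Markers of the labelled tissue were in part present. *Cidea* (13.44 ± 0.09 in Co and 13.34 ± 0.17 in Pg mice, SD, n = 4 each) and *Ppargc1a* (12.44 ± 0.45 and 12.08 ± 0.34) stood well above background on all 8 arrays, as did *Fabp4*, and *Cox7a1* and *Cox8b*, which muscle also expresses. The only *Ucp1* probe was well above background on 0 arrays, and *Elovl3* was not tested either, while the other 12 of 14 brown adipocyte genes were tested, with *Dio2* at a difference of 0.59 and none under a q of 0.1. *Dio2* passed the test without Pg replicate 3. *Adrb3* differed by 0.42 and by -0.046 without Co replicate 1, with a signal well above background on 3 of 4 Co and 2 of 4 Pg arrays. All 16 skeletal muscle genes were above background on all 8 arrays, 13 of them lower in Pg mice, where 47.2% of all tested genes were higher and 4.18% fell. *Atp2a1*, the calcium pump of fast muscle, fell by 0.44 (adjusted p = 0.0411 from limma), and *Myh4* differed by -0.77 with arrays from 11.38 to 17.07, 1 of its 2 other probes going the opposite way, and by 0.42 without Pg replicate 1. The log2 of the summed muscle signal was 21.72 to 21.82 in Co and 21.69 to 21.79 in Pg mice. That of the 12 tested brown adipocyte genes was lower, at 19.07 to 19.19 in Co and 19.18 to 19.29 in Pg mice. *Tnnt3* had the same normalized value on each Pg array (18.84, SD 0), so quantile normalization limits how far the muscle sum can move. Which tissue the endothelial signal came from was not tested.

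As a description of their pattern, the tested genes whose centred log2 values over the 8 arrays lay closest to a member were sought among 22293 others, by the root mean square difference. Closest to *Thbd* were *Snx1* (0.05 on the log2 scale), a non-coding probe on chromosome X and *Hdac7* (0.06). Closest to *Nos3* were *Gm16253* (0.05), *Heyl* (0.05) and *Map3k1* (0.06), and closest to *Cdh5* were *Tor3a* (0.04), *Haus3* (0.04) and *Tef* (0.06).

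**Figure D5:**
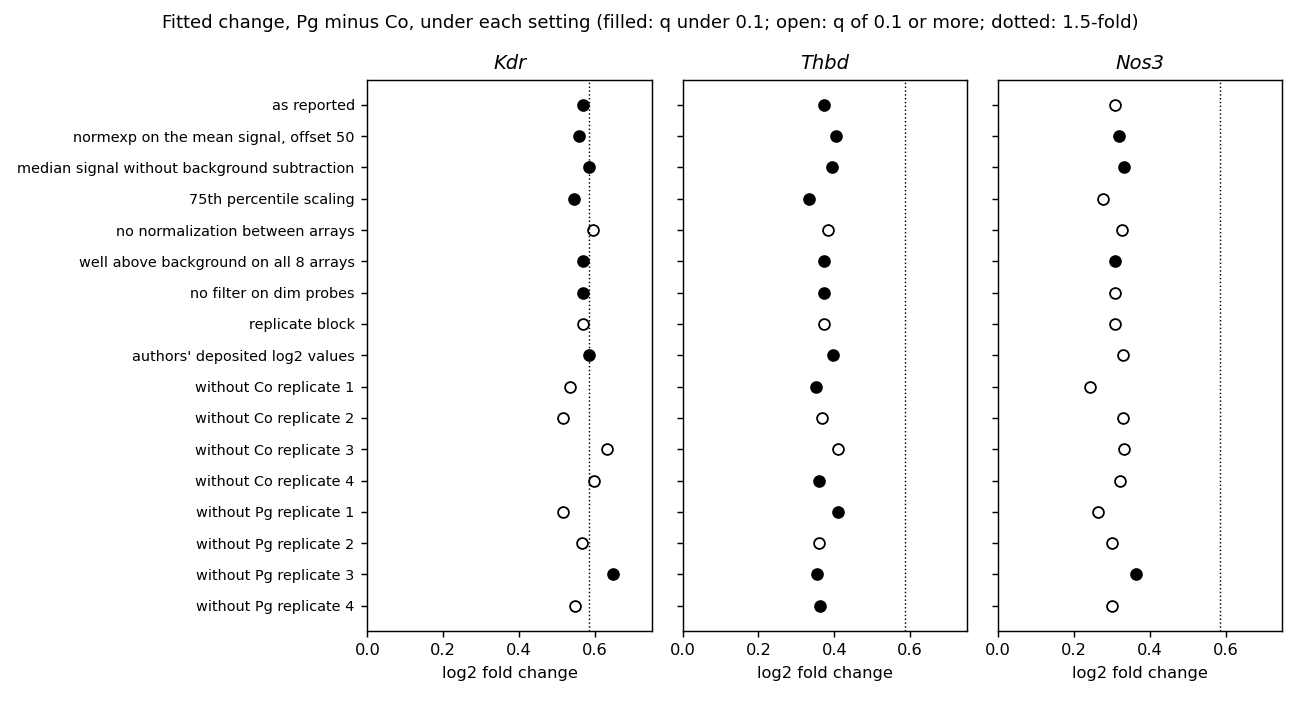
Fitted log2 fold change, Pg minus Co, of *Kdr*, *Thbd* and *Nos3* as reported and under 16 alternatives (rows), filled where q was under 0.1, with the 1.5-fold limit dotted. Each of the 3 genes stayed higher in Pg mice under each alternative, at 0.51 to 0.65 for *Kdr*, 0.33 to 0.41 for *Thbd* and 0.24 to 0.36 for *Nos3*, while the calls came and went.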

How the data were processed

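RNA of Co and Pg mice was hybridized to Agilent one-color arrays, 4 a group. The authors deposited the output of Agilent Feature Extraction 11.0.1.1, the Cy3 intensity of every spot, background-subtracted and detrended within the array, beside raw signals. The authors also deposited a table of quantile-normalized log2 values, used as an alternative, whose fold changes, p-values and q-values were not used. Here spots marked as population outliers were dropped, spots of a probe averaged, and intensities quantile-normalized, raised to 1 and log2-transformed in R 4.3.3. limma 3.58.1 was then fitted, two-sided and Benjamini-Hochberg adjusted as in the methods, to probes whose signal stood well above background on 4 arrays or more. The fit was tested on simulated data. Symbols came from RefSeq (GRCm38.p6) through the accession for 32994 of 56605 probes, otherwise from the array, with older names updated where 1 gene had them. *Ctgf* is *Ccn2* there, and *Hbb-bs* had no probe. The brightest tested probe stood for a gene of a list. The titles number the samples 1 to 4 in each group and do not say that equal numbers share anything. The titles make the arrays separate samples but do not say that each came from its own animal, so p-values measure the spread between these samples. Precision is limited by there being 4 arrays a group.

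The 10 genes and the lists were chosen with earlier results of these data known. Named list genes were the DEGs and the 2 largest changes of each list. *Mmrn2*, *Egfl7*, *Ptprb*, *Fli1*, *Pecam1*, *Kcnj2*, *Piezo1*, *Edn1*, *Pf4*, *Csf3r*, *Cidea*, *Ppargc1a*, *Fabp4*, *Cox7a1*, *Cox8b*, *Vegfa*, *Angpt2*, *Procr* and *Sele*, and the ratios to *Cdh5*, were named after their values were seen. So were *Plin1*, *Prdm16*, *Zic1*, *Tnnt3*, *Lpl*, *Kcnj8* and *Abcc9*. Alternatives were the median signal, normexp background correction (offset 50) of the mean signal, 75th percentile scaling, no normalization between arrays, other filters, a replicate block, the authors' table, and leaving out each array.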

Additional observations from a re-analysis of the deposited data

Results flagged for a closer look

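Of 38 groups of 4 arrays, 5 had an array whose gap to the nearest other array, as a share of the whole range, passed Dixon's critical value, where chance flags about 1 in 20 groups. For *Nos3*, Co replicate 1 was 10.73 against 10.97 to 11.0028 for the rest of its group (gap 0.896 of the range), and without it the log2 fold change was 0.24. For *Cdh5*, Co replicate 4 lay at 11.87 and the others at 11.44 to 11.51 (0.841). For *Thbd*, Pg replicate 1 lay at 10.92 and the others at 11.08 to 11.09 (0.917). For the *Vwf* probe ENSMUST00000112253, Co replicate 2 lay at 4.97 and the others at 5.12 to 5.14 (0.892). For the *Kdr* probe ENSMUST00000149573, Co replicate 4 lay at 5.13 and the others at 1.94 to 2.19 (0.921), the only array on which that probe was well above background.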

How the results depend on the processing

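*Kdr*, *Thbd* and *Nos3* stayed higher in Pg mice under all 16 alternatives, but their calls did not all hold. Of the 17 probes, 2 had a q under 0.1 as reported, 0 without normalization between arrays, and 0 to 3 with an array left out. The number of DEGs was 0 as reported and 0 to 1 with an array left out. The median log2 fold change of the probes was 0.00 as reported, -0.060 with normexp, -0.059 on the median signal, 0.10 for probes above background on all 8 arrays, -0.13 with no filter on dim probes, 0.080 on the authors' log2 values and -0.074 to 0.054 with an array left out. A *Flt1* probe (ENSMUST00000110529, probe A_55_P2800423) with no call in any setting changed sign, to -0.074 with normexp, -0.078 on the median signal, -0.023 with 75th percentile scaling and -0.13 on the authors' values, and lay between -0.074 and 0.052 with an array left out. The *Vwf* probe ENSMUST00000139678 changed sign to 0.029 without normalization and lay between -0.22 and 0.054 with an array left out. Of the pan-endothelial genes 6 had a q under 0.1 as reported, 0 without normalization and 0 to 6 with an array left out. Of the flow-response genes the count was 4 as reported, 2 with 75th percentile scaling, 2 with no filter, 0 without normalization and 0 to 3 with an array left out. The values of these lists and of named list genes under other settings were chosen after seeing the data. Over all probes 2644 had a q under 0.1 (23.3% of them higher in Pg mice) as reported, 29 without normalization (69% higher), 2 without Co replicate 3 and 216 without Co replicate 2. The counts of DEGs were 546, 27, 2 and 93 in the same order, and 94 with normexp, 108 on the median signal and 692 without Pg replicate 3. On the authors' log2 values, with 28067 probes tested, 106 were DEGs, 60 of them higher in Pg mice. As reported, 106 of the 546 were higher. The median of all probes was -0.04 as reported and 0.03 without normalization. Of the list genes without a call, *Vegfa*, *Procr*, *Fbln5*, *Meox2*, *Lyve1* and *Rgs5* also moved by over 1.5 times with an array left out, without turning their sign. The causes were not tested.

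With the replicate block, 0 of the 17 probes, 0 of the pan-endothelial and 0 of the flow-response genes had a q under 0.1, as did 0 of all probes in limma (7392 had an unadjusted p under 0.05). The log2 fold changes stayed the same, at 0.57 for *Kdr* (adjusted p = 0.14) and 0.37 for *Thbd* (adjusted p = 0.122). The correlations of deviations between samples of equal replicate number were 0.06, -0.03, -0.07 and 0.18, and 2 of 4 correlated best with their own number. Arrays of equal number also lay in the same column of the slide. So few values cannot decide whether equal numbers pair the samples, and the replicate block is not set aside by them. Dim probes limit what can be said of the soluble *Kdr* form and of the *Flt1* cDNA AK005502.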
